A study of Mus musculus with 12 samples.

Results

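Lung tumors with floxed *Slc2a1*, the gene of the glucose transporter Glut1, were compared with *Slc2a1* wild-type lung tumors while both expressed, by design, a dominant negative form of PPARα. The comparison took the 6 tumors of the 12 in the series whose titles read KPG1_PPARaDN (3 tumors) or KP_PPARaDN (3 tumors), and tested 16527 of the 39017 genes listed. All mice were of C57BL/6 background and carried K-rasLSL-G12D/WT, an oncogene switched on by Cre, p53Fl/Fl and CCSP-rtTA, and the KPG1 mice carried Glut1Fl/Fl in addition. The labels call the control genotype wt/wt rtTA+ and the floxed one fl/fl rrTA+. Each mouse received 6000 viral units of one lentivirus into the trachea, which held Cre under the PGK promoter and the transgene PPARaD13 under a doxycycline-responsive promoter. Both groups ate pellets with doxycycline (625 mg/kg) during 15 days, and tumors were taken 26 weeks after initiation. Another 6 tumors, titled KP and KPG1, came from mice with the same virus on a regular diet, and served as a separate set of samples with the same genotypes.

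Several features limit these groups as a model. The rtTA protein is driven by a promoter of airway club cells, whereas Cre is driven by PGK, so that a cell in which *Slc2a1* is recombined need not express the transgene. RNA came from dissociated tumors after removal of CD45-positive immune cells, and still holds RNA of fibroblasts, endothelium and other host cells in which *Slc2a1* is intact. By the number in the labels that is read as the mouse, the 3 KP_PPARaDN tumors came from 3 mice (male, female, male) and the 3 KPG1_PPARaDN tumors from 2 mice (female, male, female), with replicates 1 and 3 from the same mouse. P-values therefore measure the spread between tumors, some of which share a mouse. In bulk RNA, fewer cells of a type and less RNA per cell cannot be told apart.

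Glut1 and Glut3 (*Slc2a3*) are facilitative transporters that let glucose enter the cell along its gradient, and Glut1 is a target of the hypoxia and growth factor pathways that drive glycolysis in tumors. PPARα is a ligand-activated nuclear receptor that switches on genes of fatty acid oxidation and peroxisomes, mainly in liver. A truncated, dominant negative receptor keeps its partner and DNA but does not activate these genes.

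The libraries held 27695766 to 32385807 counts in KPG1_PPARaDN and 29216231 to 31877838 in KP_PPARaDN, and *Xist* and the Y-linked genes matched the labelled sex of all 6. Levels are given as CPM (counts scaled to a common library size) after TMM scaling, tests are edgeR quasi-likelihood tests in one fit of the 12 tumors, and a gene is called when its Benjamini-Hochberg adjusted p is under 0.05. Along the first principal component, which took 34.7% of the variance of the 6 tumors, KPG1_PPARaDN replicate 1 stood apart at 91.6 while its groupmates lay at 16.8 and 15.7. The epithelial markers *Krt8* and *Krt18* were at 729.8 to 2011 CPM in all 6 tumors, and the alveolar type 2 marker *Sftpc*, a surfactant gene, at 5540 to 15390 CPM. The club cell marker *Scgb1a1* was at 5.55 to 159.2 CPM.

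*Slc2a1* (ENSMUSG00000028645) lies on the plus strand of mm10 chromosome 4, from 119108711 to 119137983. It had 152.5, 115.1 and 108.1 CPM in the KP_PPARaDN tumors and 23.7, 53.2 and 54.5 CPM in the KPG1_PPARaDN tumors. All floxed tumors thus lay below all controls, with a mean of 43.8 ± 17.4 CPM against 125.2 ± 23.9 CPM (SD, n = 3 each). Their difference on the log2 scale was -1.51 (SE 0.362), with an unadjusted p of 0.00143 and an adjusted p of 0.462 from edgeR, so that *Slc2a1* was not called over all genes. The exact permutation test of 3 tumors against 3 gave p = 0.1 (two-sided), the smallest it allows. DESeq2 called it, with an adjusted p of 0.0136. On the regular diet *Slc2a1* had 41.7, 35.3 and 57.7 CPM in KP and 30.2, 64.0 and 39.9 CPM in KPG1, a log2 fold change of -0.006. The KP_PPARaDN tumors therefore stood above the other 9 tumors, and the floxed tumors on doxycycline lay at the level of both groups on the regular diet. The counts cover the whole gene and cannot tell recombined from intact transcripts.

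*Slc2a3*, the gene of Glut3, had 187.6, 131.1 and 24.1 CPM in KP_PPARaDN and 727.1, 234.8 and 106.1 CPM in KPG1_PPARaDN. The groups overlapped, with a log2 fold change of 1.64 (SE 1.02, adjusted p = 0.607 from edgeR). *Slc2a2*, a transporter best known from liver and pancreatic islets, had 1.06, 0.936 and 0.234 CPM against 2.87, 1.38 and 1.78 CPM, a level far under that of *Slc2a1* in the same tumors. Of the 12 glucose transporter genes tested, 5 had positive and 7 negative log2 fold changes, and none was called.

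*Ppara* (chromosome 15, 85734983 to 85802819), whose count can also take in reads of the transgene, had 2.71, 64.6 and 246.1 CPM in KP_PPARaDN and 8.90, 19.2 and 17.7 CPM in KPG1_PPARaDN. Its log2 fold change was -2.77 (SE 1.01, adjusted p = 0.492 from edgeR). The controls thus spanned a range that covers the floxed tumors, and KP_PPARaDN replicate 1 had the lowest count of all 6. On the regular diet *Ppara* had 15.7, 10.5 and 9.54 CPM in KP and 7.24, 10.5 and 15.3 CPM in KPG1. Only KP_PPARaDN replicates 2 and 3 stood far above these levels. The *Ppara* counts alone do not show whether PPARα was blocked equally in both groups. How much of each count came from the transgene was not tested.

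**Figure D1:**
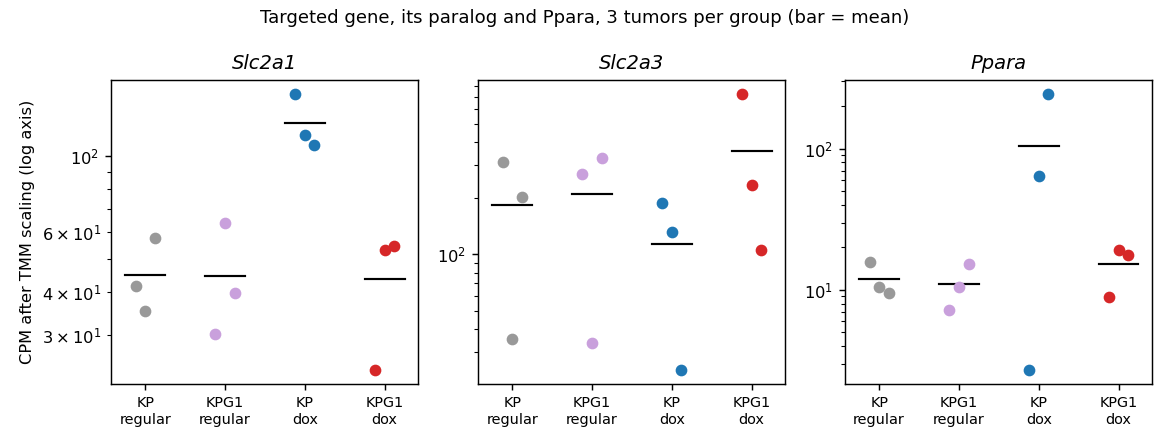
CPM (log axis) of *Slc2a1*, *Slc2a3* and *Ppara* in the 4 groups, with a point per tumor and a bar at the mean of 3. For *Slc2a1* the KP_PPARaDN tumors (108.1 to 152.5 CPM) lie above all others, whereas for *Slc2a3* and *Ppara* the 2 groups on doxycycline overlap.

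Over the whole table, 4 genes were higher (0.0242% of those tested) and 1 was lower (0.00605%) in KPG1_PPARaDN. At an unadjusted p under 0.05 there were 868 higher (5.25%) and 733 lower (4.44%) genes, and in 1707 (10.3%) and 1199 (7.25%) genes the 3 floxed tumors lay all above or all below the 3 controls. These percentages are the background against which the counts of members below are read. The median log2 fold change of all genes was 0.005. The number of calls depended on the tool: limma voom called the same 5 genes, and DESeq2 called 105 higher and 50 lower genes, the 5 among them. On the regular diet, edgeR called 4 higher (0.0242%) and 2 lower (0.0121%) genes in the other 6 tumors.

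Of the 5 genes called, 3 are annotated as processed pseudogenes, intron-less copies of a messenger RNA set into another place in the genome. *Gm10036* (chromosome 18, 15832794 to 15833327), a copy of the ribosomal protein gene *Rpl11*, rose from 0.960, 1.68 and 1.71 CPM to 47.1, 46.2 and 36.5 CPM, a log2 fold change of 4.90 (SE 0.283, adjusted p = 2.54e-05 from edgeR). *BC002163* (chromosome 16, 42955631 to 42955949), a copy of *Ndufs5*, which encodes a subunit of respiratory complex I, rose from 0.377, 0.355 and 0.335 CPM to 11.4, 9.25 and 9.54 CPM, a log2 fold change of 4.81 (SE 0.396). *Gm11223* (chromosome 4, 69925630 to 69926079), a copy of *Stmn1*, which encodes the microtubule regulator stathmin, rose from 1.51, 0.516 and 0.536 CPM to 33.4, 13.8 and 16.8 CPM, a log2 fold change of 4.64 (SE 0.622). In each of them the groups lay far apart, and the tumors of a group were less even in *Gm11223* than in the other pair. With the tumors of one mouse summed, *Gm10036* and *BC002163* were still called by edgeR, whereas *Gm11223*, *Tcea3* and *Gm7125* each had an adjusted p of 0.124. The parents were not called, with log2 fold changes of 0.41 for *Rpl11*, -0.35 for *Ndufs5* and 0.37 for *Stmn1* (adjusted p = 0.567, 0.636 and 0.794 from edgeR).

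The other 2 called genes are not pseudogenes. *Tcea3* (chromosome 4, 136247729 to 136274898), a transcription elongation factor of the TFIIS family, fell from 18.4, 16.4 and 34.8 CPM to 2.76, 1.79 and 2.25 CPM, a log2 fold change of -3.35 (SE 0.398, adjusted p = 0.0171 from edgeR). *Gm7125* (chromosome 15, 68792320 to 68883576), a long noncoding RNA, rose from 0, 0.0323 and 0 CPM to 1.33, 2.02 and 0.862 CPM. It had 1 count over the controls and 130 over the floxed tumors, a depth-scaled ratio of 126 (95% exact binomial interval 22.2 to 5010, counting error only).

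The sequences of the pseudogenes show how few letters set a copy apart from its parent, which matters because reads of 85 bases were assigned to one or the other. *BC002163* differs from the *Ndufs5* coding sequence at 2 of 319 aligned bases (T81C and A105G, the parent's base first, counted from 1 at the A of the start codon), and 55.3% of the windows of 85 bases are identical in both. *Gm11223* differs from that of *Stmn1* at 1 of 450 bases (A274G), and 76.8% of the windows are identical. *Gm10036* differs from that of *Rpl11* at 4 of 534 bases. For the first and second pair the stretch of 85 bases that holds the differences is given from GENCODE M21 transcripts (build GRCm38, which is mm10), 5′ to 3′, with the differing bases in capitals.
BC002163 (chr16:42955681-42955765, plus strand): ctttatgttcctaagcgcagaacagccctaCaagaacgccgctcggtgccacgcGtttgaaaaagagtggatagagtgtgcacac
Ndufs5 (chr4:123715945-123716029, minus strand): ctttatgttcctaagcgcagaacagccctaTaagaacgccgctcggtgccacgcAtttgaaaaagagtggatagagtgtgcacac
Gm11223 (chr4:69925764-69925848, minus strand): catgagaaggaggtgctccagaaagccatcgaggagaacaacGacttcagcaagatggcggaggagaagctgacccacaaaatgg
Stmn1 (chr4:134472849-134472933, plus strand): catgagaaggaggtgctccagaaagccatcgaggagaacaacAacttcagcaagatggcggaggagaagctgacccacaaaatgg
A read that covers no differing base fits both places equally, and a read of the parent that carries the copy's base would be counted at the copy, so that the counts of these pairs are uncertain. The parents lie on chromosome 4 at 123712710 (*Ndufs5*), 134468320 (*Stmn1*) and 136028265 (*Rpl11*), on the side of *Slc2a1* towards the end of the chromosome. Whether the alleles of these genes differ between the mice was not tested.

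These 5 genes differed in the same direction in the 6 tumors on the regular diet. There the log2 fold changes of KPG1 against KP were 4.85 for *Gm10036*, 4.89 for *BC002163*, 3.16 for *Gm11223* and -2.75 for *Tcea3*, and *Gm7125* had at most 1 count in any KP tumor and 1.24 to 1.93 CPM in the KPG1 tumors. The difference between the diets had unadjusted p-values of 0.081 or more in edgeR. KP and KPG1 tumors on the regular diet differ also in sex (all female against all male), whereas each group on doxycycline held both.

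**Figure D2:**
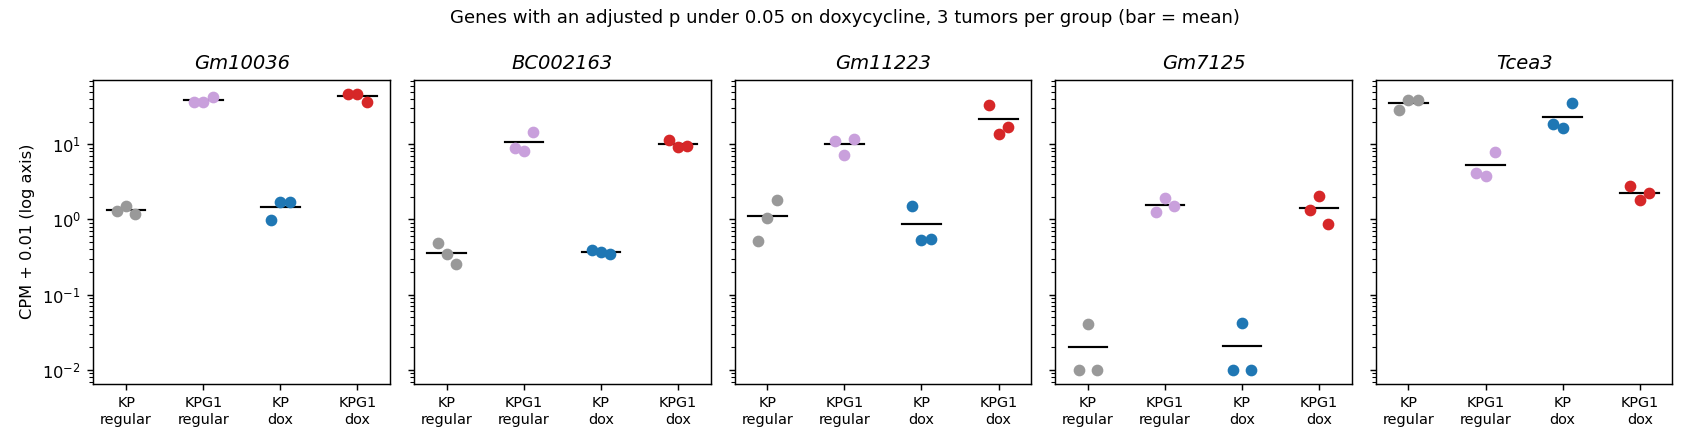
CPM + 0.01 (log axis) of the 5 called genes in the 4 groups, with a point per tumor and a bar at the mean of 3. The 6 floxed tumors of both diets lie apart from the 6 wild-type tumors in each panel, above in 4 panels and below for *Tcea3* (1.79 to 34.8 CPM on doxycycline).

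In all, 27 genes had an unadjusted p under 0.05 and groups that did not overlap in both diets, with the same direction (14 higher, 13 lower), of the 1601 genes with an unadjusted p under 0.05 on doxycycline. Most of the 1601 did not share their direction with the regular diet, where 509 had the same sign. Of the 1601, 51 had an unadjusted p under 0.05 in edgeR and the same direction on the regular diet. There 1030 of all 16527 genes tested had such a p in either direction. Whether more genes were shared than 2 unrelated comparisons would share was not tested. Among the 13 lower ones are *Map3k6*, *Rhbdl2*, *Cep85*, *Rcan3*, *Aunip*, *Zfp46*, *Hdac1* and *Tcea3*, which lie on chromosome 4 with *Slc2a1*. Chromosome 4 holds 6.45% of the genes tested that have a position. These genes lie between 123787874 (*Rhbdl2*) and 136293942 (*Zfp46*), within 20 Mb of *Slc2a1* and towards the end of the chromosome. *Rhbdl2*, a rhomboid protease, had 9.05, 4.26 and 18.0 CPM in KP_PPARaDN and 0.136, 0.704 and 0.277 CPM in KPG1_PPARaDN (log2 fold change -4.79, SE 0.875, adjusted p = 0.271 from edgeR). *Map3k6*, a stress kinase, had 10.2, 11.2 and 6.10 against 1.84, 1.38 and 2.06 CPM. On doxycycline alone, 39 of the 453 genes tested within 20 Mb of *Slc2a1* (8.61%) had an unadjusted p under 0.05 with groups apart. That compares with 29 of 602 (4.82%) on the rest of chromosome 4 and 7.52% of all genes with a position. *Fkbp5* on chromosome 17, a glucocorticoid-responsive cochaperone, had 49.3, 40.6 and 57.8 CPM against 15.0, 17.5 and 22.9 CPM (log2 fold change -1.41, SE 0.26, adjusted p = 0.271 from edgeR), and -1.21 on the regular diet. *Acat1*, a mitochondrial enzyme of ketone body and isoleucine metabolism, had 84.2, 74.0 and 89.8 CPM against 143.5, 118.5 and 101.0 CPM, and its log2 fold changes were 0.55 and 0.45 in the 2 diets. Genes of this paragraph other than *Rhbdl2*, *Fkbp5* and *Tcea3* were named after their values were seen.

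The 12 lower genes of largest difference, of which only *Tcea3* passed the adjusted test, include 5 that encode cytokines, chemokines or a matrix protease. *Tnf*, the cytokine tumor necrosis factor, had 10.7, 10.7 and 30.6 CPM in KP_PPARaDN and 0.443, 0.800 and 2.37 CPM in KPG1_PPARaDN (log2 fold change -3.84, SE 0.967). *Il1b*, the cytokine interleukin 1β, had 7.75, 7.10 and 29.1 CPM against 0.989, 2.34 and 1.29 CPM. *Cxcl5*, a neutrophil-attracting chemokine, had 181.3, 31.4 and 38.2 CPM against 1.47, 6.50 and 5.79 CPM, and *Cxcl2*, another, had 9.39, 6.36 and 19.3 CPM against 1.13, 1.83 and 0.862 CPM. *Mmp9*, a matrix metalloproteinase, had 2.54, 1.52 and 7.67 CPM against 0.205, 0.256 and 0.154 CPM. That all 5 lay below every control in every floxed tumor was a condition of their selection. Their adjusted p-values from edgeR were 0.385 to 0.470. Their log2 fold changes on the regular diet were between -1.08 (*Mmp9*) and 0.84 (*Cxcl5*). The others were *Iigp1*, an interferon-inducible GTPase, with 62.3, 52.1 and 13.03 CPM against 3.07, 3.75 and 5.57 CPM, *Pbp2*, *Fam46b*, *Kremen2*, *Prss41*, *Rhbdl2* and *Tcea3*.

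On the higher side, the 12 genes of largest difference were mostly near 0 in the controls and uneven among the floxed tumors. *Fcgbp*, a mucus protein gene, had 0.651, 0.420 and 1.41 CPM in KP_PPARaDN and 100.9, 444.9 and 1.42 CPM in KPG1_PPARaDN. *H19*, an imprinted fetal noncoding RNA, had 0.0686, 0.226 and 0.770 CPM against 2.83, 70.5 and 0.862 CPM. *Ces1c*, a carboxylesterase, had 0.480, 0.0646 and 0.369 CPM against 16.2, 42.6 and 5.51 CPM. *Atoh1*, a transcription factor of secretory and hair cells, had 1.501, 11.3 and 0.0616 CPM in the floxed tumors and 1 count in all over the controls. KPG1_PPARaDN replicate 3 thus barely exceeded the controls in *Fcgbp*, *H19* and *Atoh1*. *Zfp951*, a zinc finger gene, was the most even, with 0.137, 0.0646 and 0.234 CPM against 7.13, 7.14 and 6.10 CPM (log2 fold change 5.51, SE 1.47, adjusted p = 0.462 from edgeR). The other members were *Adamts18*, *A1cf*, *Sycp2l*, *Snap91*, *BC067074*, *Epb4.2* and *Muc13*. On the regular diet 10 of the 12 had negative log2 fold changes, and *H19* and *Zfp951* had 0.31 and 0.53. KP replicate 2 carried most of the negative ones, as in *Fcgbp*, with 1.85, 368.7 and 4.56 CPM in KP, and *Atoh1*, with 0, 51.8 and 1.74 CPM.

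Interferon response genes, which cells switch on through STAT and IRF factors after interferon or nucleic acid sensing, lay lower in the floxed tumors. Of the 36 tested, 33 had a negative log2 fold change, 12 lay below the controls in all 3 tumors (33.3%, against 7.25% of all genes) and 1 above, and the median was -0.92, against 0.005 over all genes. Among the 8 members with a mean of at least 20 CPM the median was -0.59. No member passed the adjusted test, and 7 had an unadjusted p under 0.05, each with a lower level. *Zbp1*, a sensor of Z-form nucleic acid, had 2.06, 3.78 and 4.15 CPM in KP_PPARaDN and 0.648, 0.480 and 0.554 CPM in KPG1_PPARaDN (log2 fold change -2.56, SE 0.501, adjusted p = 0.362 from edgeR). *Oasl2*, of the oligoadenylate synthase family, had 7.27, 13.3 and 13 CPM against 2.70, 5.12 and 5.23 CPM. *I830012O16Rik* (*Ifit3b*) had 0.891, 2.91 and 2.35 CPM against 0.307, 0.576 and 0.646 CPM, and *Mx2*, a GTPase that restricts viruses, 1.13, 0.807 and 2.11 CPM against 0.171, 0.608 and 0.523 CPM. The summed level of the list was 459.1, 527.4 and 569.1 CPM against 278.0, 363.1 and 391.4 CPM, without overlap. On the regular diet the median was -0.14, with 24 of 36 negative. *Ifit3b* and *Ifit3* are near-identical copies, so that their counts are uncertain.

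Many promoters of this list hold a sequence common in interferon-induced genes, which is a property of the list and not a result of these tumors. RefSeq promoter windows (GRCm38.p6, 250 bases before to 50 after the start) were found for 26 of the 36 genes, and 17 of them (65.4%) hold GAAA, any 2 bases (NN) and GAAA again on either strand, a pattern of interferon-stimulated response elements, against 3.44% of all 32851 windows. Among matched members that lay below all controls 6 of 8 hold it, and among those whose groups overlap 11 of 17, so the letters did not separate the genes by their difference. The 60-base stretches shown are of the 3 members with the smallest p among those below all controls whose matched window holds the letters, which are in capitals, upstream of the start site and 5′ to 3′.
Ifit3b (chr19:34607778-34607837, plus strand): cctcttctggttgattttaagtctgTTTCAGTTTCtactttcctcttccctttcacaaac
Cxcl10 (chr5:92349068-92349127, minus strand): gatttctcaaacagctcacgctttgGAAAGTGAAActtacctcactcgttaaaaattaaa
Igtp (chr11:58199496-58199555, plus strand): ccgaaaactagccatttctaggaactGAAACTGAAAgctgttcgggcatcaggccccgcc

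Antigen presentation genes, many of which interferon also induces, were lower throughout. All 16 tested had a negative log2 fold change with a median of -1.11, 9 lay below the controls in all 3 floxed tumors (56.3%), 5 had an unadjusted p under 0.05 and none was called. *Tapbp*, which loads peptides onto MHC class I molecules, had 109.9, 108.6 and 161.3 CPM in KP_PPARaDN and 37.3, 66.4 and 82.0 CPM in KPG1_PPARaDN (log2 fold change -1.03, SE 0.294, adjusted p = 0.462 from edgeR). The immunoproteasome subunit *Psmb9* had 12.1, 10.3 and 20.3 CPM against 1.399, 4.29 and 5.20 CPM, and *Psmb8* had 49.5, 36.6 and 63.7 CPM against 4.03, 23.7 and 19.3 CPM. The peptide transporter subunit *Tap2* had 30.1, 36.0 and 61.6 CPM against 9.24, 20.1 and 21.7 CPM. KPG1_PPARaDN replicate 1 was the lowest of the 6 tumors in each of these 4 genes. On the regular diet the median was 0.20. Of the 16 genes 12 lie on chromosome 17, where the MHC is, and all 4 elsewhere were also negative (median -1.06). These were *Ciita* on chromosome 16 (log2 fold change -0.31), *Cd74* on 18 (-0.80), *B2m* on 2 (-1.31) and *Nlrc5* on 8 (-2.90). Most genes of chromosomes 16 and 18 were negative too, with 9.30% and 13.1% positive by the measure given below. *B2m* had 298.1, 213.4 and 192.2 CPM against 83.0, 92.9 and 107.9 CPM.

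Leukocyte markers are given beside these lists because the fraction was depleted of CD45-positive cells. Of the 11 markers 8 could be tested, and all 8 had negative log2 fold changes (median -0.58) on doxycycline and on the regular diet alike. Without KPG1_PPARaDN replicate 2 the median was -1.54 and without KP_PPARaDN replicate 3 it was -0.31. Their summed level was 41.6, 41.5 and 72.5 CPM in KP_PPARaDN and 43.3, 42.2 and 34.6 CPM in KPG1_PPARaDN, and that of *Ptprc*, the gene of CD45, was 4.11, 5.20 and 9.85 CPM against 5.77, 8.07 and 3.45 CPM. The groups overlapped in both, whereas *S100a8*, a neutrophil gene, had 1.47, 1.16 and 2.31 CPM against 0.409, 0.352 and 0.308 CPM. Of the 8 markers tested 2 lay below all controls, as 7.25% of all genes did, and 0 above. Outside the list, *S100a9* and *Trem1* are among the 13 genes that were lower and apart in both diets. The part of leukocytes in the inflammatory and interferon differences was not tested.

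Markers of other host cells also differed between the groups, and their part in the lists above was not tested. All 8 fibroblast markers had negative log2 fold changes, with a median of -1.25, a summed level of 444.2, 607.3 and 402.1 CPM in KP_PPARaDN and 209.5, 168.7 and 220.4 CPM in KPG1_PPARaDN, and no overlap. *Col1a1*, the main fibrillar collagen, had 90.7, 143.8 and 77.8 CPM against 46.9, 33.5 and 44.3 CPM, and *Col3a1* had 92.3, 193.2 and 91.3 CPM against 55.6, 45.8 and 57.3 CPM. Of the 3 mesothelial markers tested, 2 were negative and 1 was positive (median -1.60). *Msln* stood out with 158.1, 241.9 and 294.3 CPM against 3.96, 61.5 and 30.2 CPM, a level that tumor cells can also reach. It made up nearly all of the list's summed level in the controls (158.8, 244.9 and 294.6 CPM), so the other markers were low. The 9 endothelial markers were all negative (median -0.85), but their groups overlapped, with 161.1, 264.8 and 899.3 CPM against 258.6, 192.6 and 292.5 CPM summed. Without KP_PPARaDN replicate 3, which had the most, the endothelial median was 0.17. Of the 6 smooth muscle and pericyte markers 5 were negative (median -0.30), and their summed levels overlapped as well. *Acta2*, smooth muscle actin and the only positive one, had 51.3, 68.4 and 15.2 CPM against 292.1, 31.1 and 108.2 CPM. Alveolar type 1 markers had a summed level of 2713, 3208 and 4517 CPM against 1367, 1510 and 2099 CPM, without overlap (median -0.87), and *Ager*, the type 1 receptor gene, 955.3, 1143 and 1693 CPM against 386.2, 599.4 and 710.5 CPM. The mesenchymal and high-grade genes, which fibroblasts express too, were negative in 10 of 11 (median -0.80, and -0.17 without KP_PPARaDN replicate 3), with *Tnc*, the matrix protein tenascin C, at 84.0, 62.6 and 86.6 CPM against 14.8, 57.7 and 15.0 CPM. None of these genes was called.

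Most alveolar markers had negative log2 fold changes, whereas airway markers were split. Of the 6 club cell markers 4 were positive and 2 negative, and *Bpifa1*, an airway secretory protein, had 3.02, 26.3 and 1.00 CPM in KP_PPARaDN and 26.6, 344.7 and 69.2 CPM in KPG1_PPARaDN. Its log2 fold change on the regular diet was -7.09, with 3.32, 2022 and 183.7 CPM in KP and 8.60, 4.89 and 2.78 CPM in KPG1. *Cbr2*, a carbonyl reductase of club cells, had 18.4, 45.25 and 170 CPM against 22.45, 7.62 and 14.7 CPM. Of the 6 ciliated cell markers 4 were positive and 2 negative, and *Sec14l3* and *Tppp3* had log2 fold changes of -1.86 and 0.58. Of the 12 type 2 markers 9 were negative (median -0.41), with 1 above and 0 below all controls. Among them *Sftpb* and *Sftpc* had -0.65 and 0.57. All 5 epithelial markers were negative (median -0.45), with -0.36 for *Krt8* and -0.70 for *Krt18*. Of the 9 type 1 markers 8 were negative, and *Emp2*, a type 1 membrane protein on chromosome 16, had a log2 fold change of -0.58. Among host cells, the endothelial genes *Pecam1* and *Vwf* had -0.65 and -0.76, the pericyte gene *Rgs5* -0.52, and the hemoglobin genes *Hbb-bs* and *Hbb-bt*, which share reads, -0.20 and 0.21. *Syp*, of neuroendocrine cells, was under 1 CPM in all 6 tumors.

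**Figure D3:**
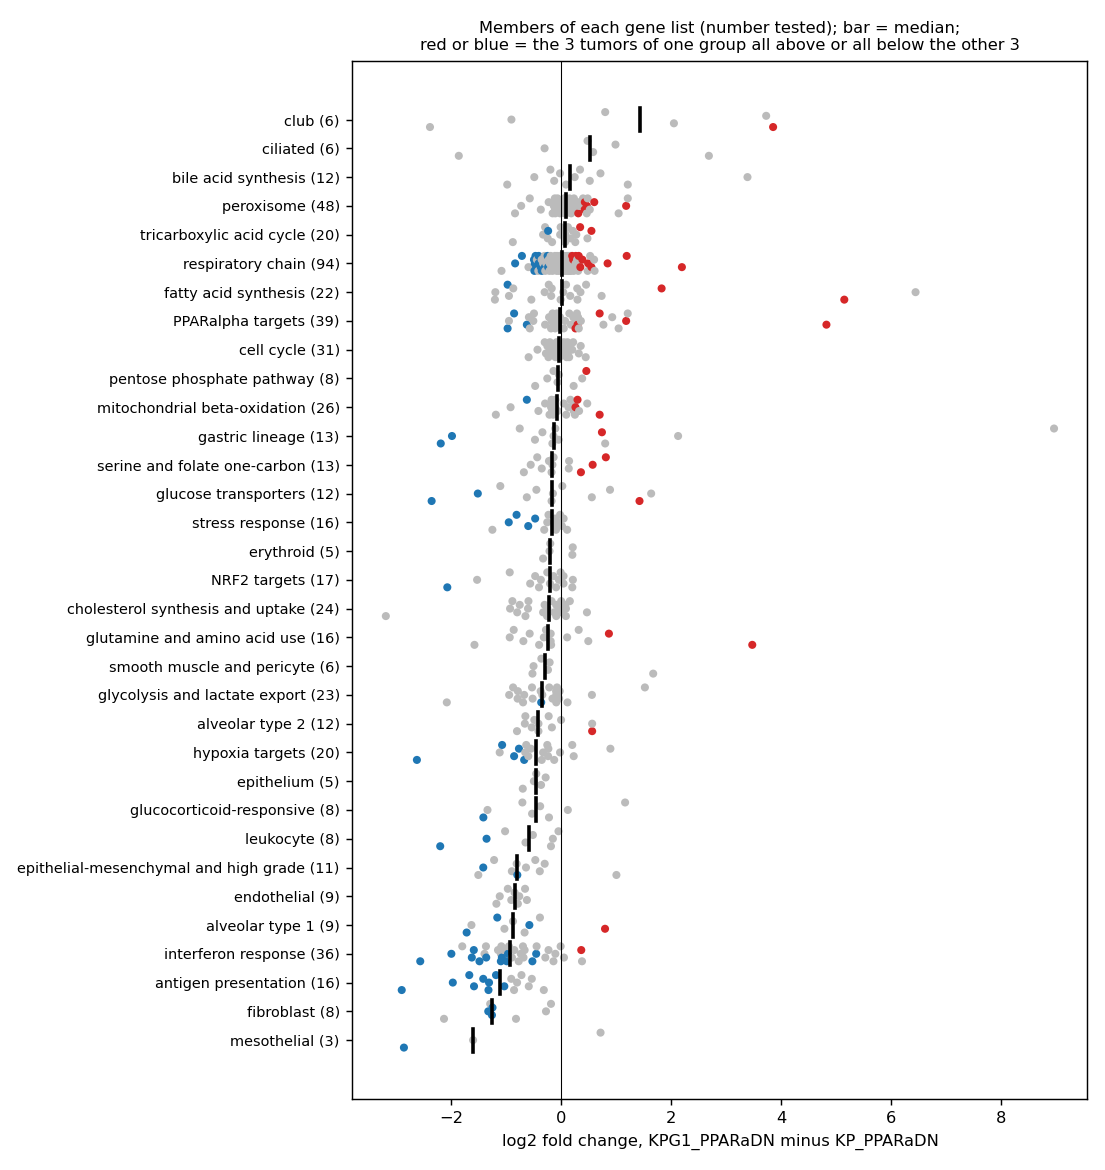
Log2 fold change (KPG1_PPARaDN minus KP_PPARaDN) of each tested member of the lists with at least 3 members, with a bar at the list's median. Members whose 3 floxed tumors all lay above the controls are red, all below are blue. Interferon response (median -0.92), antigen presentation (-1.11) and fibroblast (-1.25) sit to the left, and cell cycle (-0.029) and respiratory chain (0.023) at 0.

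Hypoxia target genes, listed here without *Slc2a1*, were negative in 17 of 20 (median -0.45), with 5 below all controls (25%) and 4 at an unadjusted p under 0.05. *Bhlhe40*, a transcriptional repressor, had 368.3, 392.6 and 466.0 CPM in KP_PPARaDN and 162.3, 191.7 and 229.8 CPM in KPG1_PPARaDN (log2 fold change -1.07, SE 0.317, adjusted p = 0.462 from edgeR). *Vegfa*, the angiogenic factor, had 534.0, 454.6 and 606.5 CPM against 254.6, 342.7 and 340.8 CPM. *Car9*, a carbonic anhydrase, had 10.8, 6.00 and 44.2 CPM against 0.682, 5.73 and 3.48 CPM, and *Hilpda*, a lipid droplet protein, 36.8, 47.0 and 35.6 CPM against 29.8, 19.5 and 25.9 CPM. Without KPG1_PPARaDN replicate 1 the median was -0.28, and on the regular diet it was 0.17. Glycolysis genes were negative in 20 of 23 (median -0.34), with 1 below all controls (4.35%), and the median was -0.19 without KP_PPARaDN replicate 1 and -0.20 without KPG1_PPARaDN replicate 1. *Pkm*, which makes pyruvate, had 2134, 1358 and 1012 CPM against 828.6, 1018 and 1276 CPM, and *Ldha*, which makes lactate, 1480, 1382 and 942.6 CPM against 1023, 963.6 and 1017 CPM. The groups overlapped in both.

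PPARα targets, the genes the transgene was meant to block, showed no common direction. Of 39 tested, 19 were positive and 20 negative (median -0.018, and 0.014 under upper-quartile scaling), 5 lay above (12.8%) and 3 below (7.69%) all controls, and none was called. *Pex11a*, which divides peroxisomes, had 13.3, 11.9 and 14.8 CPM in KP_PPARaDN and 29.6, 37.4 and 24.1 CPM in KPG1_PPARaDN (log2 fold change 1.18, SE 0.338, adjusted p = 0.462 from edgeR). *Fabp1*, the liver fatty acid-binding protein, had 0.206, 0.775 and 0.168 CPM against 10.6, 1.28 and 21.2 CPM. *Eci2*, an isomerase of fatty acid oxidation, had 45.3, 38.6 and 46.4 CPM against 108.6, 49.4 and 53.9 CPM, and *Fads1*, a fatty acid desaturase, 168.5, 78.6 and 77.6 CPM against 36.2, 66.0 and 63.2 CPM. Log2 fold changes on the regular diet were -0.06 for *Pex11a*, -1.28 for *Fabp1*, 0.07 for *Eci2* and 0.98 for *Fads1*. When the level of *Ppara* in each tumor entered the fit, the list's median was 0.23.

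Peroxisome genes were positive in 32 of 48 (median 0.083), with 6 above (12.5%) and 0 below all controls, where 10.3% of all genes lay above. *Pex3*, which inserts peroxisomal membrane proteins, had 28.7, 25.9 and 28.6 CPM against 39.4, 37.5 and 38.3 CPM. Of the 26 genes of mitochondrial β-oxidation, 12 were positive and 14 negative (median -0.082). Fatty acid synthesis genes were split 11 to 11, with *Dgat2*, an enzyme of triglyceride synthesis, at 5.62, 3.68 and 6.16 CPM against 21.2, 11.5 and 22.3 CPM, and *Elovl2*, a fatty acid elongase, at 0.103, 0.968 and 0.603 CPM against 44.6, 4.29 and 11.3 CPM. *Elovl2* had a log2 fold change of 5.15 on doxycycline and -5.68 on the regular diet, where 1 tumor stood far above the others (2.29, 90.2 and 4.04 CPM in KP and 0.480, 0.688 and 0.694 CPM in KPG1).

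Of the 13 one-carbon genes 5 were positive and 8 negative (median -0.16), and of the 16 genes of glutamine and amino acid use 5 and 11 (median -0.23). The members named by the rule were higher ones. In one-carbon metabolism *Shmt1*, a serine hydroxymethyltransferase, had 80.6, 92.5 and 57.8 CPM against 145.2, 130 and 130.9 CPM, and *Mthfd1*, a folate enzyme, 155.5, 144.0 and 128.0 CPM against 175.7, 194.2 and 179.4 CPM. In amino acid use *Slc38a1*, a glutamine transporter, had 4.08, 5.58 and 2.31 CPM against 14.6, 66.8 and 52.1 CPM, and *Got2*, the mitochondrial aspartate aminotransferase, 146.4, 148.4 and 96.1 CPM against 346.3, 173.5 and 195.1 CPM. Log2 fold changes on the regular diet were -0.35 for *Shmt1*, -0.19 for *Mthfd1*, -2.47 for *Slc38a1* and -0.05 for *Got2*. Of the stress genes, *Hspa5*, the chaperone of the endoplasmic reticulum, had 970.4, 1316 and 1356 CPM against 791.8, 690.5 and 926.2 CPM, and *Cebpb* had 4.56, 5.04 and 6.80 CPM against 2.08, 4.07 and 3.20 CPM. Of the 17 NRF2 targets 13 were negative, and *Gsta1* had 1.30, 5.04 and 2.11 CPM against 0.239, 0.993 and 0.770 CPM. Of the 13 gastric lineage genes 4 were positive and 9 negative (median -0.14, range -2.19 to 8.97). The lowest of them, *Tff1*, a gastric peptide, had 111.3, 219.7 and 99.5 CPM against 6.82, 54.8 and 32.8 CPM. None of these was called. Cell cycle genes were split 15 to 16 with no member apart, and *Pcna* and *Mcm7* had 109.1, 150.2 and 106.9 and 140.2, 179.9 and 47.0 CPM in KP_PPARaDN against 114.2, 128.2 and 103.5 and 125.8, 99.6 and 117.8 CPM in KPG1_PPARaDN. Abundant genes of 3 further lists had log2 fold changes of 0.47 for *Hmgcs1* and 0.01 for *Srebf2* (cholesterol synthesis and uptake), -0.25 for *Pgd* and -0.14 for *Tkt* (pentose phosphate), and 0.25 for *Scp2* and -0.02 for *Hsd17b4* (bile acid synthesis). Of the 8 pentose phosphate pathway genes 1, of the 24 cholesterol genes 0 and of the 12 bile acid synthesis genes 0 had groups that did not overlap.

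On some chromosomes most genes differed in the same direction, a pattern noticed in these data and described here without a test. For each chromosome the median was taken over its genes with a mean log2 CPM above 3 (10406 genes on 20 chromosomes), after each tumor had been set to the median of all genes. On chromosome 13 the median log2 fold change of 365 genes was 0.45 and 89.6% of them were positive. On chromosome 16 it was -0.39 over 344 genes (9.30% positive) and on chromosome 17 it was -0.38 over 526 genes (9.89% positive). Cut into 3 equal runs of genes, these chromosomes had medians of 0.40 to 0.51, -0.44 to -0.35 and -0.41 to -0.32, so that no single stretch carried the shift. On chromosomes 1, 8, 11 and 12 the genes were split evenly, with 50% to 53.4% positive. On the regular diet the medians of chromosomes 13, 16 and 17 were -0.098, 0.072 and 0.003, but chromosome 19 had 0.55 there (93.8% positive, tumors overlapping) and -0.33 on doxycycline.

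By tumor, the chromosome 13 median relative to the 12 tumors was -0.20, -0.25 and -0.21 in KP_PPARaDN and 0.62, -0.047 and 0.087 in KPG1_PPARaDN. That of chromosome 17 was 0.17, 0.093 and 0.20 against -0.42, -0.19 and -0.067, and that of chromosome 16 was 0.30, 0.10 and 0.24 against -0.34, -0.053 and -0.056. KPG1_PPARaDN replicate 1 was the most extreme of the 6 on all 3. The groups did not overlap on 7 of 20 chromosomes on doxycycline (7, 9, 10, 13 and X higher, 16 and 17 lower) and on 1 of 20 on the regular diet, although single tumors of every group held a shifted chromosome, such as KP_PPARaDN replicate 1 on chromosome 18 (0.70). DNA copy number was not measured, and its part in these medians was not tested.

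**Figure D4:**
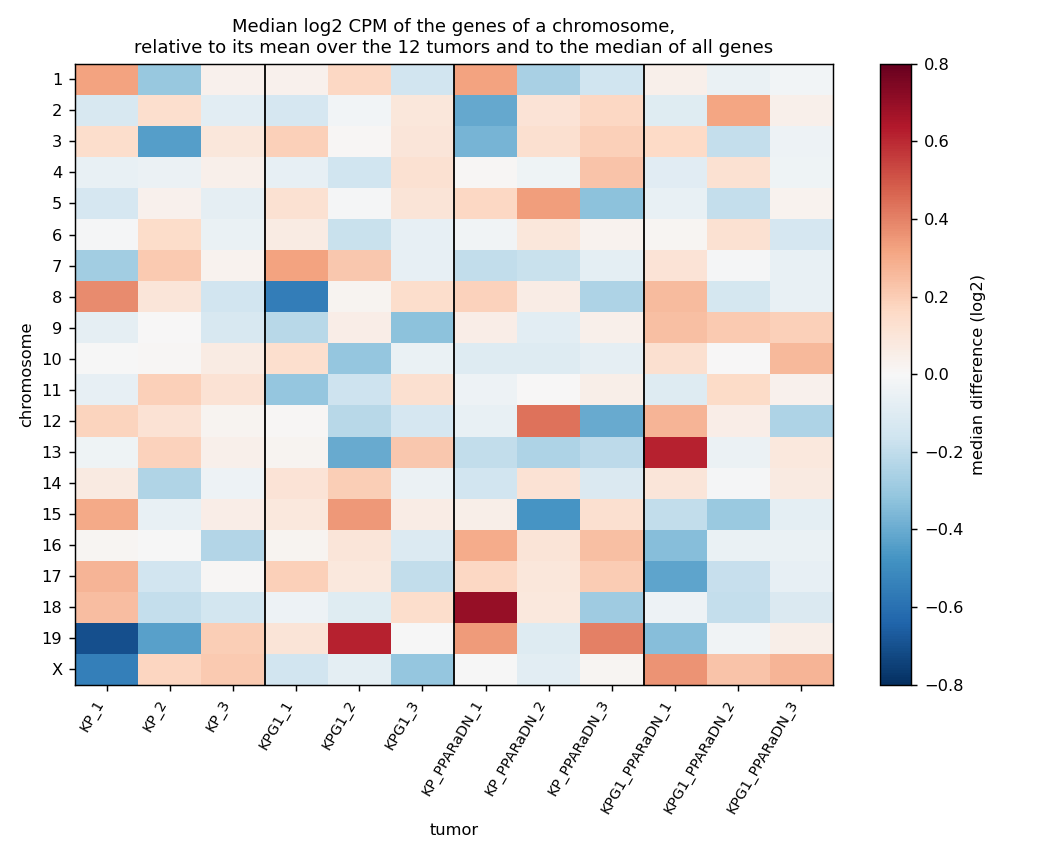
Median log2 CPM of the genes of each chromosome in each tumor, relative to the gene's mean over the 12 tumors (color, log2 units). In the last 6 columns chromosome 13 is below 0 in KP_PPARaDN and highest in KPG1_PPARaDN replicate 1 (0.62), and chromosomes 16 and 17 change from above to below 0.

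In the respiratory chain the direction of a gene went with its chromosome, which was not so in every list: both glycolysis genes on chromosome 13 were negative, and of the 3 gastric lineage genes on chromosome 17, 2 were positive. Of the respiratory chain genes, which encode the complexes that pass electrons to oxygen and make ATP, 49 of 94 were positive and 45 negative (median 0.023), with 11 above (11.7%) and 14 below (14.9%) all controls. All 6 members on chromosome 13 were positive (median 0.58), all 4 on chromosome 16 and all 7 on chromosome 17 negative (medians -0.33 and -0.45), and 7 of 7 on chromosome 17 lay below all controls. These chromosomes were picked from the same tumors, where 89.6%, 9.30% and 9.89% of their genes were positive. The split is therefore not particular to the respiratory chain. *Cox7c* on chromosome 13, a subunit of complex IV, had 5.52, 5.10 and 5.26 CPM in KP_PPARaDN and 17.1, 8.39 and 10.9 CPM in KPG1_PPARaDN (log2 fold change 1.19, SE 0.312, adjusted p = 0.462 from edgeR). *Sdha* on chromosome 13, the catalytic subunit of complex II, had 220.8, 186.2 and 219.8 CPM against 409.6, 245.1 and 264.6 CPM. *Uqcc2* on chromosome 17, an assembly factor of complex III, had 24.4, 30.7 and 16.4 CPM against 11.8, 12.7 and 15.6 CPM, and *Ndufb4* on chromosome 16, of complex I, 12.1, 15.1 and 13.7 CPM against 8.63, 7.01 and 9.33 CPM. *Cox6a2*, on chromosome 7, had 1.68, 2.16 and 1.07 CPM against 10.4, 6.595 and 5.63 CPM, and its log2 fold change on the regular diet was -1.95. *Eci2* and *Elovl2* also lie on chromosome 13, and *Tnf*, *Vegfa*, *Fkbp5*, *Msln*, *Ager*, *Tff1*, *Kremen2* and *Prss41* on chromosome 17.

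With the chromosome medians of each tumor removed from the fit, an alternative chosen after the pattern was seen, the median of the antigen presentation list went from -1.11 to -0.74 and that of interferon response from -0.92 to -0.75. The log2 fold change of *Slc2a1* was -1.45 in that fit, and edgeR called 2 higher genes and 1 lower gene.

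**Figure D5:**
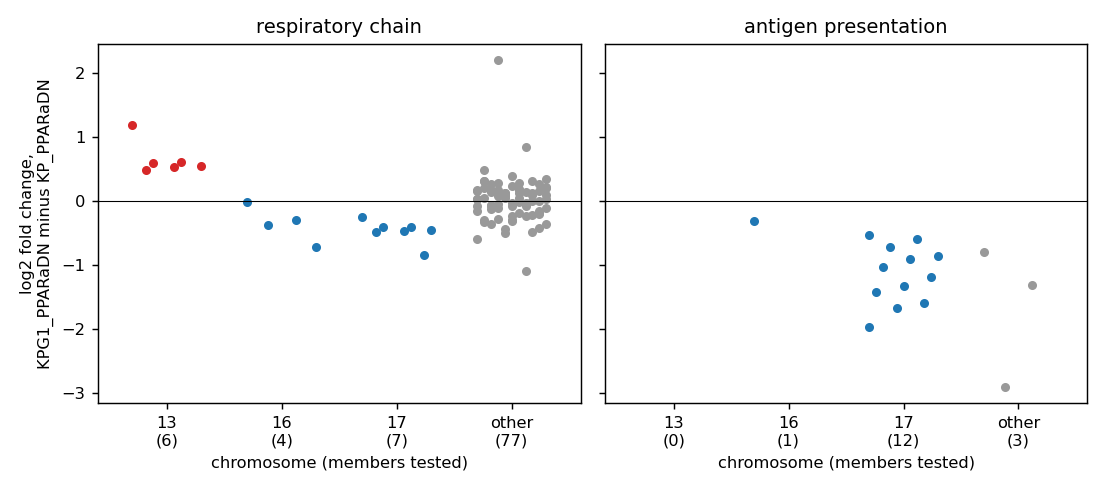
Log2 fold change (KPG1_PPARaDN minus KP_PPARaDN) of the respiratory chain and antigen presentation genes tested, by chromosome, with a point per gene. The 6 respiratory chain genes on chromosome 13 lie above 0 and the 11 on chromosomes 16 and 17 below it, and all 16 antigen presentation genes are negative, 12 of them on chromosome 17.

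Whether the genotype difference itself depended on the diet was tested by the difference of both contrasts. No gene had an adjusted p under 0.05 in edgeR (1951 at an unadjusted p under 0.05), none in limma voom, and 286 in DESeq2. For *Slc2a1* the difference was -1.51 (unadjusted p = 0.0119, adjusted p = 0.351 from edgeR), for *Zbp1* the unadjusted p was 0.00404, and for *Elovl2* it was 0.000259.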

How the data were processed

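RNA of 12 mouse lung tumors was sequenced as single-end reads of 85 bases from stranded poly(A) libraries. Trimming by the authors used Cutadapt and alignment to mm10 used HISAT2. They deposited the count of reads per gene, which the submitters' processing notes tie to featureCounts 1.4.4. The treatment of reads that fit 2 places is not given in the sources used here. The deposited log2 values were not used. Counts were tested with edgeR 4.0.16 under R 4.3.3 (TMM, filterByExpr, glmQLFit, 4 group means, 8 residual degrees of freedom, Benjamini-Hochberg adjustment). SE is |log2 fold change| / √F. Log2 CPM used a prior count of 2. Positions are from GENCODE M21. The code was tested on simulated data.

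Members, lists and rules were chosen with earlier results of these data known. Named are *Slc2a1*, *Slc2a3* and *Ppara*, all called genes, in each direction at most 12 genes of largest difference (unadjusted p under 0.05, mean of at least 1 CPM, groups apart, named genes only), and up to 4 per list, or the 2 most abundant of a list with none. *B2m*, *Ciita*, *Cd74*, *Nlrc5*, *Ptprc*, *S100a9*, *Trem1*, *Scgb1a1*, *Cxcl10* and *Igtp* were named after their values were seen. Alternatives were DESeq2 1.42.0, limma 3.58.1 voom, other scalings and filters, covariates, a replicate block, tumors of one mouse summed, each sex and each tumor left out. Depth limits low genes only, and intervals cover counting error only. Columns matching no sample numbered 0.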

Additional observations from a re-analysis of the deposited data

Results flagged for a closer look

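*Slc2a1* is listed because its genotype effect differed between the diets in the test of that difference before adjustment. The log2 fold change on doxycycline minus that on the regular diet was -1.51 (unadjusted p = 0.0119, adjusted p = 0.351 from edgeR), and the KP_PPARaDN tumors, at 108.1 to 152.5 CPM, lay above the other 9 tumors.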

How the results depend on the processing

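Against 4 higher genes and 1 lower gene, DESeq2 called 105 and 50, a minimum mean of 20 CPM gave 1 and 0, sex as a covariate 2 and 0, *Ppara* as a covariate 2 and 1, tumors of one mouse summed 2 and 0, females 0 and 0 (654 at an unadjusted p under 0.05 in edgeR), males 1 and 0, and removal of chromosome medians, chosen after seeing the data, 2 and 1. Leaving out each tumor gave 2 to 4 higher and 0 to 1 lower genes, and *BC002163* and *Gm10036* were called each time. *Tcea3* was lost without any of the 3 KPG1_PPARaDN tumors, *Gm11223* was kept only without KP_PPARaDN replicate 1, and *Gm7125* never. The doxycycline tumors fitted alone gave 5 and 1, of which only *BC002163* and *Gm10036* were shared. There *Tcea3*, *Gm11223* and *Gm7125* had adjusted p-values of 0.123, 0.191 and 0.221 in edgeR, and *Zfp951* (0.0468), *Klhl23*, *Opn3* and *Pcolce*, the last 3 named after their values were seen, were called. The replicate block gave 2 higher genes and 1 lower gene, but the numbers do not pair the tumors (correlations of -0.003, -0.087 and 0.037). *Slc2a1* was -1.60 with the replicate block, -1.53 in DESeq2 and -1.70 to -1.22 with a tumor left out. The difference between diets gave 0 calls, and 286 in DESeq2. The causes were not tested.

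Of 1896 alternative values of named genes 1785 kept direction and side of the threshold, 24 passed it anew, 38 no longer passed it and 49 reversed, and of 678 list medians 56 moved by more than 1 SD. *Srebf2* reversed to -0.0034 in DESeq2 and with RLE scaling, -0.013 without a filter, -0.0026 in the doxycycline tumors alone, -0.035 with *Ppara* as a covariate, -0.039 with tumors of one mouse summed and -0.39 in males. *Mcm7* reversed to 0.11 in voom, 0.017 with the replicate block, 0.089 in males and 0.17 without chromosome medians. *Hsd17b4* reversed to 0.014 with upper-quartile scaling, 0.21 in females and 0.33 without chromosome medians, where *Syp* was -0.23. With *Ppara* as a covariate *Ppara* was 0.012 and *Pecam1* 0.16. In females *Sec14l3* was 0.18, *Krt18* 0.33, *Vwf* 0.085, *Pgd* 0.076, *Pecam1* 0.16, *Krt8* 0.30, *Rgs5* 0.15 and *Syp* -0.56. In males *Acta2* was -0.10, *Pcna* 0.25 and *Hbb-bt* -0.83. With a tumor left out, values ran from -0.74 to 0.22 for *Hbb-bs*, -0.19 to 1.26 for *Hbb-bt*, -0.29 to 0.28 for *Hsd17b4*, -0.49 to 0.29 for *Mcm7*, -0.17 to 0.093 for *Pcna*, -1.07 to 0.38 for *Pecam1*, -0.83 to 0.021 for *Rgs5*, -2.31 to 0.041 for *Sec14l3*, -0.22 to 0.25 for *Srebf2*, -0.12 to 0.37 for *Syp*, -0.32 to 0.10 for *Tkt* and -1.12 to 0.18 for *Vwf*.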
